A study of Mus musculus with 16 samples.

Results

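Elf5, Kit, Aldh1a3, Ehf, Elf3, Gata3, Foxa1, Esr1, Pgr and Prlr were chosen by name as regulators and receptors that mark luminal progenitor or hormone-sensing cells of the mammary gland. These 10 genes were followed among 19822 genes, in cell classes built without them, and each had at least 1 unique molecular identifier (UMI) in the cells kept. Drop-seq, which tags the 3′ ends of mRNAs of single cells caught in droplets, was run on live, DAPI-negative cells sorted from end-stage mammary tumors of untreated mice of 2 genotypes, whose ages the labels do not give. WB1P mice carry WapCre;Brca1F/F;Trp53F/F, and WB1P-Myc mice carry WapCre;Brca1F/F;Trp53F/F together with Col1a1invCAG-Myc-IRES-Luc, a Myc transgene that Cre switches on. Brca1 and Trp53 are therefore floxed in both models, and Cre is driven by the promoter of Wap, a milk protein gene of alveolar luminal cells, so that recombination is aimed at that lineage.

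From each model, 4 droplet fractions were sequenced on a HiSeq. The fractions are collections from 1 cell suspension and are not tied to single mice, so each model counts as 1 sample, no p-value is given, and the model cannot be told apart from its tumors or its droplet run. Cells with 450 to 4000 genes and under 20% mitochondrial UMIs numbered 4798, of which 1307 were from WB1P (65, 426, 394 and 422 in fractions 1 to 4) and 3491 from WB1P-Myc (950, 889, 756 and 896). The 8 tables held 256985 to 1918672 UMIs in WB1P and 3814562 to 4960334 in WB1P-Myc. WB1P fraction 1 stood apart in depth, with 60 epithelial-like cells, and tables of different fractions shared 3 barcodes over 28 pairs.

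In the normal gland, luminal cells form a milk-producing branch and a hormone-sensing branch. Luminal progenitors of the secretory branch carry the receptor tyrosine kinase KIT and the retinaldehyde dehydrogenase ALDH1A3, and the ETS factors ELF5, EHF and ELF3 act in secretory and barrier epithelium. Hormone-sensing cells carry the estrogen receptor (Esr1), the progesterone receptor (Pgr) and the pioneer factor FOXA1, which opens chromatin for the estrogen receptor. The prolactin receptor (Prlr) is found in both branches and signals through JAK2 and STAT5 to Elf5 and the milk protein genes, and GATA3 is needed by luminal cells of both kinds.

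On the RefSeq annotation of GRCm38.p6, Elf5 (chr2:103412098-103450989) and Ehf (chr2:103263431-103303275) are neighbors, with a gap of 108822 bases that holds 2 annotated genes, 0 of them protein coding. Gata3 lies on the same chromosome (chr2:9857078-9887953). The others lie at chr5:75574987-75656722 (Kit), chr7:66390892-66427477 (Aldh1a3), chr1:135253574-135258472 (Elf3), chr12:57540628-57548029 (Foxa1), chr10:4611989-5005633 (Esr1), chr9:8898900-8968611 (Pgr) and chr15:10177238-10349190 (Prlr). RefSeq promoter windows of the same build, 300 bases long, were at hand for 8 of the 10 genes (13 windows). The spaced palindrome TTCNNNGAA, the core letters that STAT5 recognizes, was found in 2 of these 13 windows, 1 each of Esr1 and Prlr, and in 8.30% of all 32851 windows. The E-box CACGTG, the core letters bound by MYC and MAX, was found in 0 of the 13 and in 7.15% of all. Both motifs read the same on either strand and do not overlap each other. The Prlr window with the match (chr15:10223656-10223955, plus strand) is shown because Prlr had the widest ratio between Schwann-like and epithelial-like cells of WB1P-Myc, with the matching letters in capitals. A match is a description of the letters and says nothing of binding in these cells.
Prlr: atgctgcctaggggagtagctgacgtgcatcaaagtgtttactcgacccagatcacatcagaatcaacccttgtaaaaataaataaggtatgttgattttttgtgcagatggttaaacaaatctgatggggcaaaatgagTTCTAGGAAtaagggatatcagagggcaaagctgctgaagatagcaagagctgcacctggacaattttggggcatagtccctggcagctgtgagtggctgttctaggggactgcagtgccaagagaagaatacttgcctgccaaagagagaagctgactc

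Cells fell into classes named from fixed markers that include none of the 10 genes. In WB1P, these were 675 epithelial-like, 377 macrophage-like, 218 fibroblast-like and 37 endothelial-like cells. In WB1P-Myc, these were 1059 epithelial-like, 1128 Schwann-like (Sox10, Mbp and S100b among the leading genes), 257 unnamed, 699 macrophage-like, 275 fibroblast-like and 73 endothelial-like cells. The unnamed cells were led by Dlk1, Slc38a4, Gap43, Crabp1 and Mest. Epithelial-like cells of the models came from different clusters, 655 of 675 WB1P cells from cluster 4, led by Csn3 and Lcn2, and 1051 of 1059 WB1P-Myc cells from cluster 3, in which Krt8, Krt19, Krt14, Krt17, Cdh1, Cldn3 and Cldn7 led but no epithelial marker was among the 10 top genes by fold. The 12 epithelial markers were summed as CPM (UMIs scaled to a class total of 1000000). The epithelial-like sums were 5970 CPM in WB1P and 3034 in WB1P-Myc for these markers, and 110 and 500 CPM for the Schwann markers, against 3350 CPM in Schwann-like cells. The part of these levels in the differences between models was not tested.

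Of the luminal progenitor genes, Ehf, Elf3 and Elf5 were highest in epithelial-like cells of both models, while the steroid receptors and Foxa1 were close to or at 0 there. Levels are CPM of all UMIs of a class, and since the tags sit at 3′ ends a molecule counts once whatever the length of its gene. Each 95% interval is an exact Poisson interval and covers counting error only, not the spread between mice. In WB1P epithelial-like cells Ehf was highest at 102 CPM (89.0 to 117), followed by Aldh1a3 at 58.3 (48.3 to 69.8), Elf3 at 50.5 (41.2 to 61.2), Prlr at 48.5 (39.4 to 59.1), Kit at 36.3 (28.5 to 45.5), Elf5 at 33.3 (25.9 to 42.2) and Gata3 at 4.90 (2.35 to 9.01). The intervals of Ehf and of Gata3 stood clear of their neighbors in this order, whereas those from Aldh1a3 down to Elf5 each overlapped the next. In WB1P-Myc epithelial-like cells Ehf was again highest at 98.7 CPM (88.4 to 110), followed by Prlr at 25.4 (20.3 to 31.4), Kit at 24.2 (19.2 to 30.03), Elf3 at 20.6 (16.01 to 26.0), Gata3 at 14.6 (10.8 to 19.3), Elf5 at 14.0 (10.3 to 18.6) and Aldh1a3 at 10.7 (7.52 to 14.9). There too only Ehf stood clear of its neighbor, and Aldh1a3, next to Ehf in WB1P, was last of these 7 genes.

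Against this, Foxa1 had 3 UMIs in WB1P (1.47 CPM, 0.303 to 4.30) and 6 in WB1P-Myc epithelial-like cells (1.79 CPM, 0.657 to 3.90). Esr1 had 0 UMIs in the 675 WB1P cells, which allows a level of up to 1.47 CPM at 3 counts and a share of up to 0.444% of cells with a UMI, and 7 UMIs in WB1P-Myc (2.09 CPM, 0.840 to 4.30). Pgr had 0 UMIs in both, which at 3 counts allows a share with a UMI of up to 0.444% of the WB1P and 0.283% of the WB1P-Myc cells. Over all 4798 cells, Pgr had 1 UMI, in a WB1P fibroblast-like cell. Summed, the 5 luminal progenitor genes had 573 UMIs against 102 of Prlr, Foxa1, Esr1 and Pgr in WB1P epithelial-like cells, a log2 ratio of 2.49 (2.18 to 2.81), and 564 against 98 in WB1P-Myc, 2.52 (2.21 to 2.85). Prlr made up nearly all of the second sum. Without it, the 3 remaining genes had 3 UMIs in WB1P (log2 ratio 7.58) and 13 in WB1P-Myc (5.44). With Prlr, the ratio in WB1P-Myc was 4.00 in Schwann-like, 4.36 in unnamed, 2.66 in fibroblast-like and 2.20 in macrophage-like cells. In WB1P it was 1.81 in macrophage-like and 0.92 in fibroblast-like cells. Each of these rests on at most 12 UMIs in the second sum. The ratio of the sums alone thus does not set epithelial-like cells apart from other classes.

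**Figure D1:**
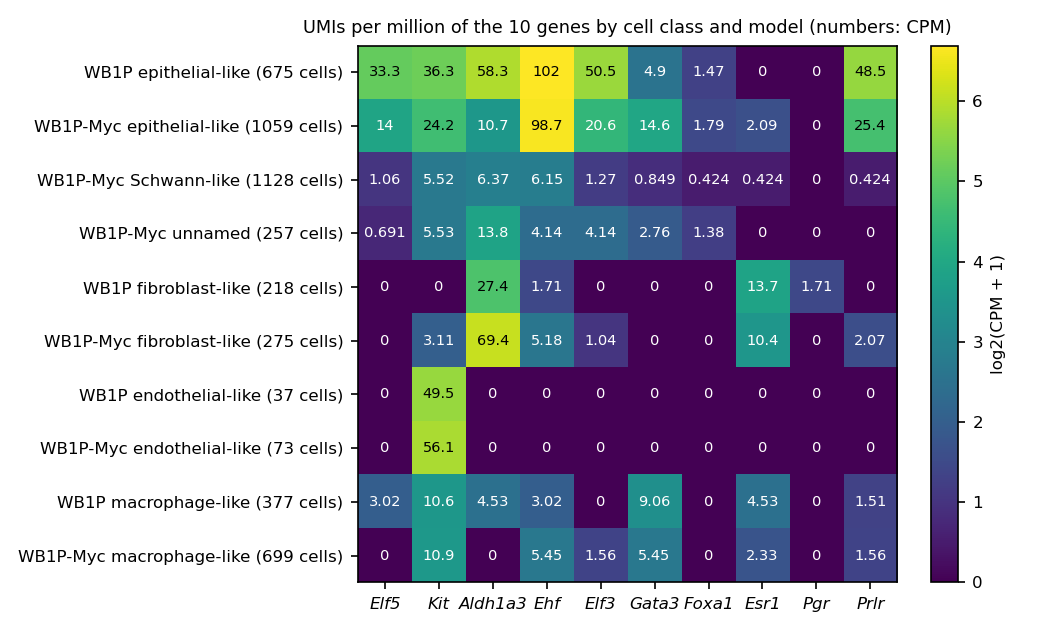
Heat map of the level of each of the 10 genes in every cell class of WB1P and WB1P-Myc tumors. Colors are on a log scale, the CPM is printed in each field, and no intervals are drawn. Ehf, Elf5, Elf3, Kit and Prlr are highest in the epithelial-like classes, apart from Kit in the small endothelial-like classes, Aldh1a3 is also found in fibroblast-like cells, and Esr1 reaches 13.7 and 10.4 CPM in fibroblast-like cells but 0 and 2.09 CPM in epithelial-like cells.

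Few single cells held a UMI of any of these genes, as low counts allow. Ehf was detected in 18.2% of WB1P (123 of 675) and 16.8% of WB1P-Myc epithelial-like cells (178 of 1059), at median depths of 1834 and 1935 UMIs. In macrophage-like cells, which should lack it and had median depths of 1450 and 1487 UMIs, 0.531% and 1.00% held an Ehf UMI. Elf5, the ETS factor of alveolar commitment, was detected in 7.41% (50 cells) and 3.59% (38 cells), against 0.531% and 0% of macrophage-like cells. Prlr was detected in 9.33% (63 cells) and 4.06% (43 cells), against 0.265% and 0.286%. Both lay above that background in either model. After thinning each cell to 600 UMIs, the shares with Elf5 were 1.63% and 0.662%, in the same order.

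Between epithelial-like cells of the models, Elf5 and Elf3 were lower in WB1P-Myc, whereas Ehf, their close relative, differed little. A gene was called when it differed by at least 2-fold and the 4 fractions of one group all lay on one side of the 4 of the other, among genes with at least 50 UMIs over both groups. Of the 10 genes, 7 reached 50 UMIs (Foxa1, Esr1 and Pgr did not), 2 were called lower and 0 higher. Over all 8670 genes counted, 11.7% were called lower and 12.0% higher, and the median log2 ratio was 0.02 against -0.94 for the 7 genes, so 2 of 7 is not far from the background and is read as a description of Elf5 and Elf3.

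Elf5 stood at 22.4, 31.4, 23.8 and 44.6 CPM in WB1P fractions 1 to 4 but in WB1P-Myc at 10.2, 11.8, 19.0 and 14.8 CPM. All WB1P fractions were above all WB1P-Myc fractions, though the WB1P fraction 1 value rests on 2 UMIs. Leaving out 1 fraction at a time, Elf5 was called in 7 of 8 cases and Elf3 in 8 of 8, but both calls were lost with no upper gene limit. Without WB1P fraction 4 the Elf5 ratio was -0.99 (-1.63 to -0.33) and the call was lost, while Aldh1a3 was called lower and Gata3 higher, and without WB1P fraction 1 the Elf5 ratio was -1.27 (-1.84 to -0.71). The means were 30.6 ± 10.1 and 13.9 ± 3.87 CPM (SD over 4 fractions, which is technical spread), and the log2 ratio of the summed counts was -1.25 (-1.82 to -0.69).

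Elf3, an ETS factor of barrier epithelia, behaved alike. It stood at 33.6, 54.6, 51.3 and 47.6 CPM in WB1P and at 14.7, 23.6, 23.5 and 21.0 CPM in WB1P-Myc, again with no overlap. The means were 46.8 ± 9.23 and 20.7 ± 4.18 CPM (SD, 4 fractions) and the log2 ratio was -1.29 (-1.76 to -0.84).

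Ehf stood at 146, 105, 112 and 86.2 CPM in WB1P and at 97.2, 86.7, 117 and 91.2 CPM in WB1P-Myc. The fractions of the models were interleaved, and the log2 ratio of -0.05 had an interval of -0.31 to 0.20, which leaves out a change of 2-fold by counting error.

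Aldh1a3, the enzyme that makes retinoic acid in luminal progenitors, had the widest difference of the 7. It stood at 89.6, 98.3, 49.5 and 17.8 CPM in WB1P and at 18.1, 6.57, 2.23 and 16.02 CPM in WB1P-Myc, a log2 ratio of -2.44 (-3.02 to -1.89). WB1P fraction 4 fell just below WB1P-Myc fraction 1, so the groups overlapped and the gene was not called. The spread within WB1P was wide (63.8 ± 37.3 CPM, SD, 4 fractions), and without WB1P fraction 2 the ratio was -1.74 (-2.41 to -1.09).

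Kit, the stem cell factor receptor, stood at 112, 42.3, 27.5 and 26.7 CPM in WB1P and at 27.1, 30.2, 20.1 and 19.7 CPM in WB1P-Myc. The groups overlapped, and the log2 ratio of -0.59 (-1.06 to -0.11) fell to -0.44 (-0.93 to 0.06) without WB1P fraction 1. That level rests on 10 UMIs, of which 6 sat in 1 cell of 11621 UMIs, and without this cell the fraction stood at 51.5 CPM. Its ligand Kitl, not among the 10, was called lower in WB1P-Myc, at 10.7 against 30.9 CPM (log2 -1.52, -2.16 to -0.91).

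Gata3 was the only one of the 7 with a higher level in WB1P-Myc. It stood at 0, 2.73, 0 and 11.9 CPM in WB1P and at 18.1, 17.1, 11.2 and 12.3 CPM in WB1P-Myc, and the log2 ratio was 1.58 (0.58 to 2.72). WB1P fraction 4 reached into the range of WB1P-Myc, which kept the gene from being called. Of the 10 Gata3 UMIs of WB1P, 4 came from 1 cell of that fraction, and without the cell of most Gata3 UMIs in each model the ratio was 2.20 (0.96 to 3.72).

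Prlr stood at 146, 39.6, 47.7 and 46.1 CPM in WB1P and at 14.7, 51.2, 13.4 and 25.9 CPM in WB1P-Myc. WB1P-Myc fraction 2 lay above WB1P fractions 2, 3 and 4, so the groups overlapped, with a log2 ratio of -0.94 (-1.37 to -0.50). Without WB1P-Myc fraction 2 the ratio was -1.45 (-1.99 to -0.93), and without WB1P fraction 1 it was -0.80 (-1.25 to -0.35). The high value of that fraction came from 13 UMIs in 6 of its 60 cells, 6 of them in the cell that also held most of its Kit UMIs, and without this cell it stood at 90.2 CPM. The JAK and STAT genes downstream of the receptor were low: Jak2 stood at 25.0 CPM in WB1P and 11.9 in WB1P-Myc, Stat5a at 7.35 and 9.25, and Stat5b at 1.96 and 10.4.

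**Figure D2:**
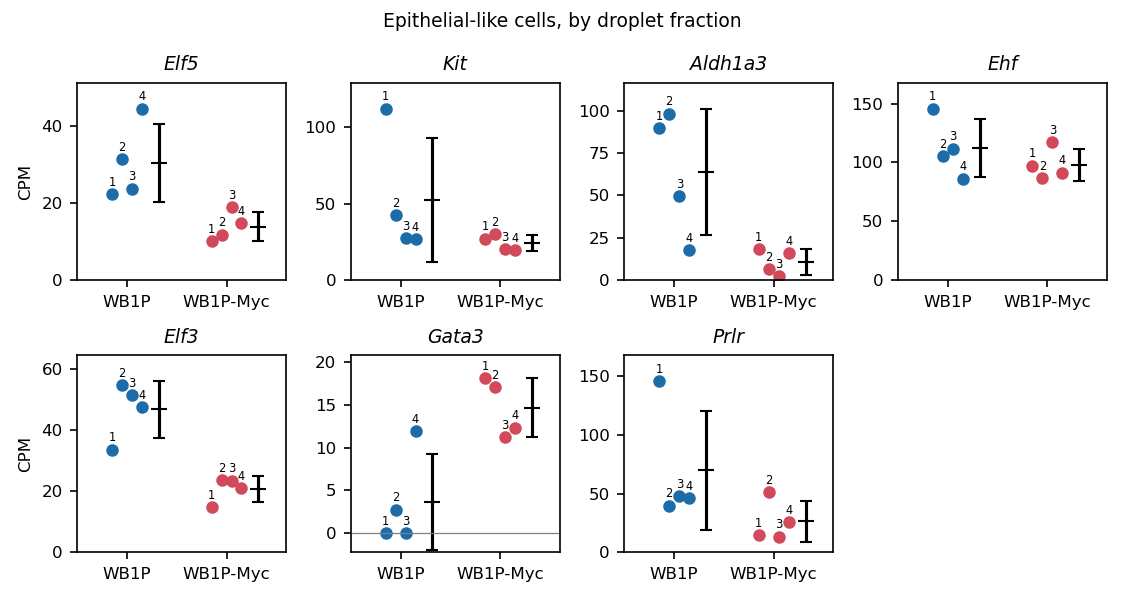
Level (CPM) of the members with at least 50 UMIs in epithelial-like cells, 1 point per droplet fraction of WB1P and WB1P-Myc, with bars for the mean ± SD over 4 fractions. Elf5 and Elf3 do not overlap between models, Ehf is interleaved, and WB1P fraction 1 is the high point of Kit and Prlr.

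**Figure D3:**
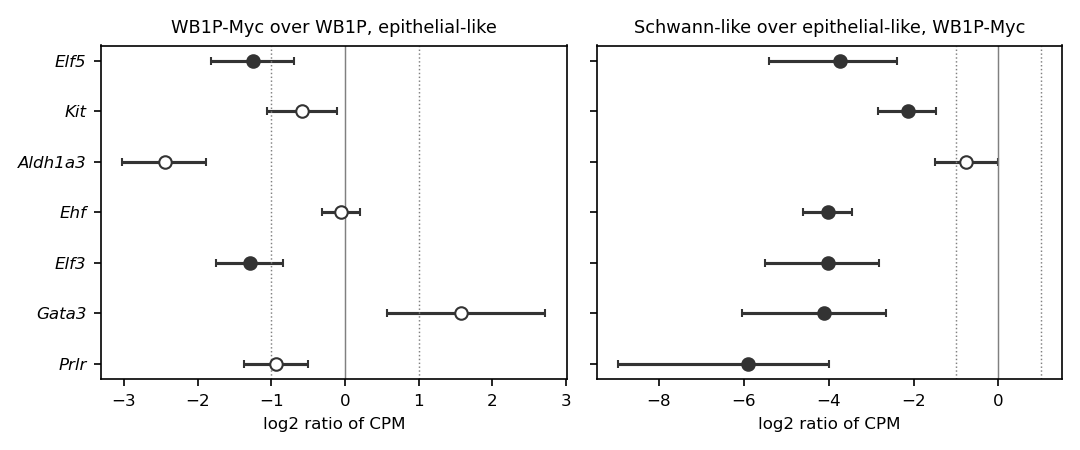
Log2 ratio of each gene with 95% conditional binomial intervals, for WB1P-Myc over WB1P epithelial-like cells and for Schwann-like over epithelial-like cells of WB1P-Myc. In the first comparison the ratios run from -2.44 (Aldh1a3) to 1.58 (Gata3) among the 7 genes counted, and in the second from -5.90 (Prlr) to -0.75 (Aldh1a3).

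A few cells carried a large part of the rarer transcripts. In WB1P-Myc, 1 epithelial-like cell of fraction 2, singled out after its values were seen, held 19 of the 85 Prlr UMIs (22.4%), and the next cell held 8. Without it Prlr was 19.7 CPM in WB1P-Myc. The same cell held 4 of the 6 Foxa1 UMIs, 1 Esr1 and 1 Gata3 UMI, and was the only epithelial-like cell of this model with UMIs of Esr1, Foxa1 and Prlr together.

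It also held a large part of several hormone-sensing transcripts. It had 25 of the 67 Areg UMIs of the class (37.3%), the EGFR ligand that estrogen induces, 16 of the 23 of Calca, 12 of the 42 of Cited1 and 4 of the 13 of Prom1. It had Krt8, Krt18, Krt19 and Epcam at 15, 12, 29 and 11 UMIs, and 0 UMIs of Elf5, Kit, Aldh1a3, Ehf, Elf3, Lcn2, Csn3 and Trf. In the other cells of the class the latter genes ran from 10.8 CPM (Aldh1a3) to 137 CPM (Trf), so 0 counts at the depth of this cell say little. With 5047 UMIs over 2147 genes and 2.73% mitochondrial UMIs it was deep for its class, and 1 cell is no class. In WB1P, 22 of the 119 Aldh1a3 UMIs (18.5%) came from 1 cell of fraction 2 with 14436 UMIs, and without it Aldh1a3 was 47.9 CPM. With the top cell of each gene left out of each model, the model ratio was -1.22 (-1.69 to -0.75) for Prlr and -2.47 for Aldh1a3.

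Within WB1P-Myc, Schwann-like cells had low levels of the luminal genes, and the gap to epithelial-like cells was narrowest for Aldh1a3, the lowest of the 7 genes in epithelial-like cells. This comparison shares its epithelial-like cells with the one between models. Of the 7 genes with at least 50 UMIs, 6 were called lower in Schwann-like cells and 0 higher, where 6.15% of 9834 genes were called lower and 10.5% higher, and the median log2 ratio was -4.00 against 0.02 over all genes. The minimum counts UMIs of both classes together. These 6 genes reached it mainly through epithelial-like cells, such as Elf5 (47 against 5 UMIs) and Prlr (85 against 2). A call of higher was thus hardly possible for them, and 6 of 7 is read as a description only. Leaving out 1 of the 4 fractions, Ehf, Elf3 and Kit were called in 4 of 4 cases, Prlr in 3 of 4 and Elf5 and Gata3 in 0 of 4, where too few UMIs were left. Ehf was 6.15 CPM in Schwann-like cells (log2 -4.00, -4.60 to -3.45), Elf3 1.27 CPM (-4.01, -5.51 to -2.82), Elf5 1.06 CPM (-3.72, -5.41 to -2.40) and Gata3 0.849 CPM (-4.11, -6.04 to -2.66). Prlr had the widest gap at 0.424 CPM, or 2 UMIs in 1128 cells (-5.90, -8.97 to -4.00). Kit kept 5.52 CPM (-2.13, -2.83 to -1.48), below the 10.9 CPM of macrophage-like cells of the same tumors. Those cells held Ehf and Gata3 at 5.45 CPM each, Elf3 and Prlr at 1.56 each, and Elf5 and Aldh1a3 at 0. Schwann-like levels of Ehf, Elf3, Gata3 and Prlr thus lay near or below this background. Aldh1a3 stood at 6.37 CPM in Schwann-like against 10.7 in epithelial-like cells (log2 -0.75, -1.50 to -0.01) and was not called. Of the subclusters described next, the mostly Schwann-like subclusters 1 (630 cells) and 3 (475 cells) held Aldh1a3 at 2.30 (0.925 to 4.74) and 15.8 CPM (10.2 to 23.3), the second overlapping the level in epithelial-like cells. In the 257 unnamed cells Aldh1a3 was 13.8 CPM, while Ehf and Elf3 were 4.14 CPM each, Elf5 0.691 and Prlr 0.

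Tumor-type cells of each model, a working name whose tumor origin was not tested, were then split further. These were the 675 epithelial-like cells in WB1P and the 2187 epithelial-like and Schwann-like cells together in WB1P-Myc. Since these splits were made from the same cells, the differences below are descriptions with no test. No share over all genes was counted for contrasts with a subcluster. Lack of overlap between fractions there is thus not read as particular to the members. In WB1P, subcluster 2 (158 cells, the keratins Krt7, Krt14, Krt17 and Krt19 and the genes Inhba, Cav1, Slc2a1, Hmga2 and Plaur leading) had little Kit, Prlr, Ehf and Elf5. Kit was 2.95 CPM there (2 UMIs) against 52.8 CPM (72 UMIs) in the other 517 cells, a log2 ratio of -4.16 (-7.23 to -2.26). Prlr was 7.38 against 69.0 CPM (-3.22, -4.88 to -1.95), Ehf 31.0 against 138 CPM (-2.15, -2.88 to -1.50) and Elf5 11.8 against 44.0 CPM (-1.90, -3.17 to -0.83). Each of these 4 genes was lower in 3 of 3 fractions with cells of both kinds, and the fractions did not overlap. Fraction 1 gave 0 of its 60 cells to this subcluster, where the other fractions gave 29.0%, 21.0% and 26.2%.

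Aldh1a3 was 105 CPM in subcluster 2 against 35.2 CPM (log2 1.57, 1.03 to 2.13), but this difference rests on fraction 2. It stood at 211, 51.6 and 21.4 CPM in fractions 2 to 4 against 32.4, 48.5 and 15.9 CPM, and 57 of its 71 UMIs came from fraction 2. Without fraction 2 the ratio was -0.09 (-1.11 to 0.85), at 34.3 against 36.7 CPM, while Kit (-3.21), Prlr (-2.56), Ehf (-2.05) and Elf5 (-1.86) were still lower. Without the single cell of many Aldh1a3 UMIs named above the ratio was 1.07 (0.47 to 1.68). Elf3 differed by 0.23 (-0.38 to 0.83). Keratins were higher in these cells, with log2 ratios of 1.82 for Krt14, 1.59 for Krt17, 0.53 for Krt18 and 0.36 for Krt8 (1.28, 1.11, 0.52 and 0.34 without that cell). Krt14 and Krt17 helped to define the subcluster and the values by fraction of all 4 keratins overlapped. Epcam was 2076 against 2545 CPM. Subclusters 1 (301 cells, Wfdc18, Chil1 and Trf leading) and 3 (130 cells, Cenpa and H2afx leading) held Elf5, Kit, Prlr and Ehf at 29.7, 65.3, 61.4 and 127 CPM and at 57.7, 49.9, 77.4 and 151 CPM. Subcluster 4 was shallow, with 55 of its 86 cells from fraction 1. It held Aldh1a3 at 125 CPM (64.7 to 219, 12 UMIs), so a high Aldh1a3 level was not particular to subcluster 2.

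In WB1P-Myc the 7 genes had their highest levels in subcluster 5 (244 cells, of which 232 are epithelial-like and 12 Schwann-like by class), where 11 epithelial markers and Lgals7, Wfdc18 and Krt79 led. It held Ehf at 146 CPM, Prlr at 51.1, Kit at 36.0, Elf3 at 35.3, Gata3 at 27.4, Elf5 at 23.8 and Aldh1a3 at 17.3 (11.1 to 25.7), the last overlapping the 15.8 CPM of subcluster 3. It also held all 7 of the Esr1 UMIs of epithelial-like cells. Set beside all WB1P epithelial-like cells, these cells had log2 ratios of -0.01 (-0.56 to 0.53) for Kit, 0.08 (-0.39 to 0.53) for Prlr (-0.67 without WB1P-Myc fraction 2), -0.49 (-1.13 to 0.13) for Elf5 and -0.52 (-1.04 to -0.01) for Elf3. Ehf was 0.51 higher (0.23 to 0.80), with overlap of fractions. Aldh1a3 was still lower (-1.75, -2.45 to -1.11) and Gata3 higher (2.48, 1.45 to 3.65), the latter with no overlap of fractions. The Aldh1a3 ratio was -1.06 (-1.83 to -0.32) without WB1P fraction 2 and -2.60 (-3.70 to -1.67) without WB1P-Myc fraction 1, and without WB1P fraction 4 the Gata3 ratio was 4.23 (2.27 to 7.32). With subcluster 5 in place of all WB1P-Myc epithelial-like cells, 0 of the 6 genes counted met the rule for lower, so the calls for Elf5 and Elf3 depend on which WB1P-Myc cells are put in the class. This comparison is uneven, since subcluster 5 is where these genes were highest and the WB1P cells were not narrowed. WB1P subclusters 1 and 3 held Elf5 at 29.7 and 57.7 CPM and Elf3 at 29.7 and 61.7 CPM.

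Subcluster 4 of WB1P-Myc (276 cells, Mfng, H19, Igf2, Epcam and Cldn7 among its leading genes) had the ETS factors and Kit at lower levels and almost no Prlr or Gata3. Of its cells, 265 are epithelial-like by class. It had Ehf at 44.2 CPM, Kit at 13.7, Elf3 at 8.84 and Elf5 at 8.04, but 1 UMI each of Prlr and Gata3, 0.804 CPM. Against subcluster 5 the log2 ratios were -1.73 (-2.18 to -1.29) for Ehf and -1.56 (-2.75 to -0.51) for Elf5, and -5.99 (1 against 71 UMIs) for Prlr and -5.09 (1 against 38 UMIs) for Gata3. Aldh1a3 was lower as well (-3.43, 2 against 24 UMIs). Elf5 was lower in 3 of 4 fractions, and its fractions overlapped. The epithelial markers were lower too, Epcam by -0.63, Krt18 by -2.56, Krt8 by -2.82, Krt14 by -4.65 and Krt17 by -4.66 on the log2 scale, with no overlap of fractions, and their part in the lower levels of the members was not tested. Subcluster 2 (562 cells, median 1196 UMIs) was the shallowest, with Ehf at 93.2 CPM, Kit at 18.6 and Prlr at 16.2.

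**Figure D4:**
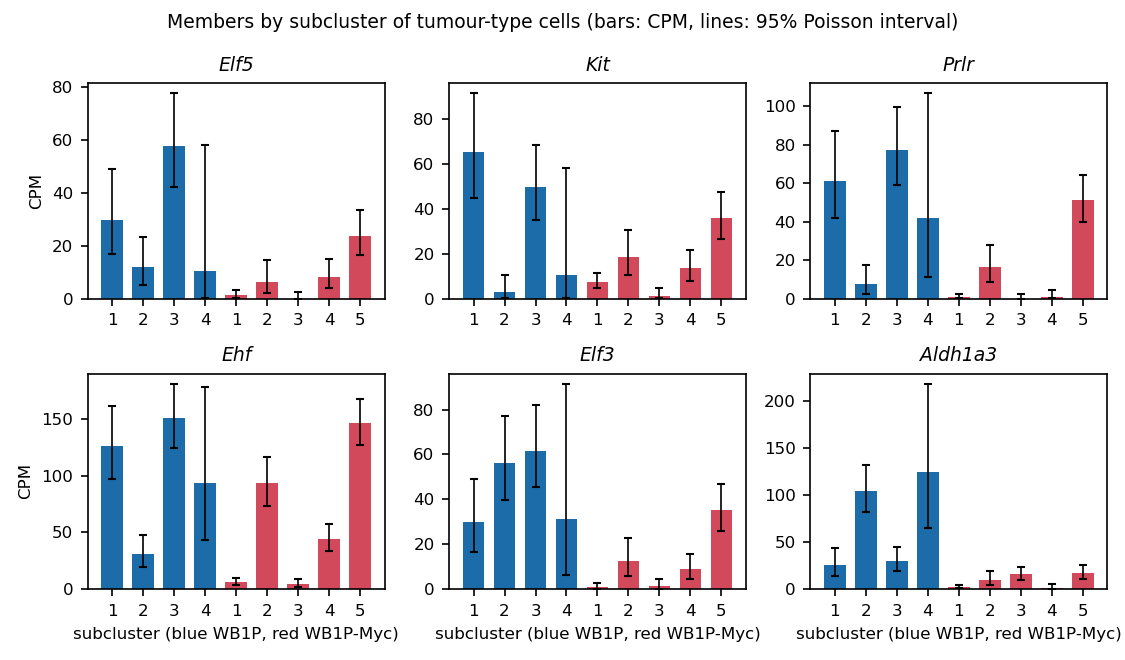
Level (CPM) of Elf5, Kit, Prlr, Ehf, Elf3 and Aldh1a3 in subclusters of tumor-type cells of WB1P and WB1P-Myc, with 95% Poisson intervals for counting error. In WB1P subcluster 2, Kit (2.95 CPM) and Prlr (7.38) are low and Aldh1a3 (105) rests on fraction 2. In WB1P-Myc subcluster 4, Ehf (44.2) is present where Prlr (0.804) is near 0.

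Pairs of genes were also counted cell by cell in WB1P. Of the 50 epithelial-like cells with an Elf5 UMI, 17 also had a Prlr UMI (34.0%), against 7.36% of the cells without Elf5. Of the 48 cells with Kit, 15 had Prlr (31.2% against 7.66%). Of the 57 cells with Aldh1a3, 4 had Prlr (7.02% against 9.55%) and 4 had Elf5 (7.02% against 7.44%), while 12 had Elf3 (21.1% against 8.90%).

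Depth bears on these shares, since a cell with more UMIs shows more genes. From the shares within 3 bins of depth, Prlr would fall in 6.17 cells with Elf5, 5.52 with Kit and 6.36 with Aldh1a3. The counts seen were 17, 15 and 4. Pairs without Prlr showed a like excess, such as Elf5 with Ehf (25 seen against 12.0) and Kit with Ehf (22 against 10.7). Others did not, such as Aldh1a3 with Ehf (12 against 12.5) and with Kit (5 against 5.43). The excess was thus not particular to Prlr, and depth still varies within a bin. In the 225 deepest WB1P epithelial-like cells (median 5226 UMIs), Prlr was found in 15 of 37 cells with Elf5, in 11 of 30 with Kit and in 4 of 33 with Aldh1a3. In the 225 cells of middle depth (median 1834 UMIs) Prlr was found in 1 of 10 cells with Elf5, 3 of 11 with Kit and 0 of 16 with Aldh1a3, and after thinning to 600 UMIs in 0 of 11, 1 of 7 and 0 of 14. In WB1P-Myc, Prlr was found in 5 of 38 cells with Elf5 (13.2% against 3.72%) and in 9 of 67 with Kit (13.4% against 3.43%). From the shares within bins of depth, 2.71 and 4.35 cells would be found. Cells with 2 or more of the 5 luminal progenitor genes held a Prlr UMI in 22.9% of 83 WB1P and 18.2% of 66 WB1P-Myc cells, at median depths of 5220 and 6211.5 UMIs. Of the cells with none of them, 5.26% of 437 and 2.56% of 782 did, at 1525 and 1553 UMIs.

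Outside the tumor cells, several of the 10 genes were found in stroma. Aldh1a3 was 27.4 CPM (15.7 to 44.5, 16 UMIs) in WB1P and 69.4 CPM (53.8 to 88.2, 67 UMIs) in WB1P-Myc fibroblast-like cells, and the WB1P-Myc fractions stood at 40.4, 91.3, 71.5 and 70.4 CPM. All 4 lay above every WB1P-Myc epithelial-like fraction. Fibroblast-like cells with no Epcam UMI, the sign used here for epithelial RNA, still had 33.5 and 60.6 CPM. Within WB1P-Myc the highest class level of Aldh1a3 was thus in fibroblast-like cells, and in WB1P it was in epithelial-like cells.

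Esr1 was likewise higher in fibroblast-like than in epithelial-like cells. It was 13.7 CPM (8 UMIs) in WB1P and 10.4 CPM (10 UMIs) in WB1P-Myc fibroblast-like cells, and 12.6 and 9.15 CPM in those without an Epcam UMI, against 4.53 and 2.33 CPM in macrophage-like cells. Kit was 49.5 CPM (3 UMIs) and 56.1 CPM (10 UMIs) in the few endothelial-like cells, where its ligand Kitl was highest, at 462 and 410 CPM. Kitl was 56.6 and 75.7 CPM in fibroblast-like and 30.9 and 10.7 CPM in epithelial-like cells. Gata3, which also directs T helper cells, had 5 UMIs in 12 WB1P and 6 in 45 WB1P-Myc cells of a small T or NK-like class split off at a finer resolution of 0.6 (378 and 77.3 CPM), against 1.54 and 1.65 CPM in the remaining macrophage-like cells.

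Other genes of the same pathways were counted from fixed lists. The counts below are to be read beside the 11.7% of all genes called lower and 12.0% called higher between models, and the 6.15% and 10.5% for Schwann-like cells, and with so few genes per list nothing particular to a list is read from them. Between epithelial-like cells of the models, 4 of 10 counted luminal progenitor and alveolar genes were called lower in WB1P-Myc and 0 higher (median log2 -1.62), led by Lcn2 (-5.02), Csn3 (-4.98) and Mfge8 (-2.96). Csn2, the beta-casein gene, stood at 23.0 against 2.94 CPM (2.97) and was not called. Of 6 counted hormone-sensing genes, 3 were called lower (Areg -4.53, Prom1 -2.77 and Xbp1 -1.81) and Tbx3 higher (2.81), with a median of -0.64. Of 9 prolactin and KIT signaling genes, 3 were called lower and 0 higher (median -0.66). Beside Kitl, the widest were Grb2 (-1.09), Jak2 (-1.07, not called) and Socs2 (-1.03).

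The other ETS factors had 6 of 13 called lower and 0 higher (median -0.65). The 3 PEA3 relatives Etv4 (-4.52), Etv1 (-4.02) and Etv5 (-3.90) had the widest ratios, wider than Elf5 or Elf3, followed by Elk3 (-2.07). Among 15 epithelial transcription factors, 5 were called lower and 3 higher (median -0.20): Tfap2c was lower (-3.20) and Bcl11b higher (2.65), Cebpb stood at -2.61 and was not called, and Tfap2b, at 57 UMIs against 0, was at least 11.6-fold higher by the 3-count limit. Retinoid genes, the pathway of Aldh1a3, had 3 of 8 called lower and 1 higher (median 0.00), with Crabp2 (-3.42) and Rarg (-1.84) among the lower and Crabp1 higher (5.29).

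In Schwann-like against epithelial-like cells of WB1P-Myc, 6 of 9 luminal progenitor and alveolar genes were called lower and 1, Trf, higher (median -3.11), with Plet1 (-5.01), Ltf (-4.56), Wfdc18 (-4.55) and Csn2 (-3.30) the widest. Of 14 epithelial transcription factors, 8 were called lower and 0 higher (median -1.15). Tfap2c (-4.55), Grhl2 (-4.25) and Bcl11b (-3.71) had the widest fitted ratios, and Tfap2b, at 0 UMIs against 57, was at least 26.7-fold lower by the same limit. Hormone-sensing genes had 1 of 6 lower (Tbx3, -1.51; Areg -1.60, Cited1 0.67 and Xbp1 0.62 not called), with a median of -0.22. Prolactin and KIT signaling genes had 4 of 13 lower (Socs2 -1.81, Stat5b -1.71 and Kitl -1.66 among them) and 1 higher, Jak2 (1.37, 30.8 against 11.9 CPM), with a median of -0.33, and Stat5a stood at -0.80, not called. Retinoid genes had 3 of 12 lower (Crabp1 -2.95 and Rdh10 -1.66 among them) and 2 higher, Rxrg (3.87) being the widest, with a median of 0.15. The other ETS factors had 1 of 11 lower (Ets2, -2.09) and 2 higher (Elk3 1.49 and Ets1 1.39), with Elk1 at 0.40 and a median of -0.04.

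Of the 3 members with at least 200 UMIs, the genes most alike in level over the 10 groups of class and model were sought by Pearson's r of log2(CPM + 10), as a description over groups that share libraries. For Ehf these were Cldn7 (0.991), Ly6d (0.984) and St14 (0.983), all epithelial surface or junction genes. For Kit these were Osbpl3 (0.955), Itga6 (0.946) and Rsf1 (0.944). For Aldh1a3, whose pattern includes fibroblast-like cells, these were Clip4 (0.946), Fosl1 (0.934), a subunit of the AP-1 factor, and Hspa13 (0.930).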

How the data were processed

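The authors aligned Drop-seq reads to mm10 with dropseq-tools and deposited raw UMI counts per gene and barcode, 1000 barcodes per table, from a HiSeq and a MiSeq run of each of 8 fractions. The HiSeq tables were used and the MiSeq tables served as an alternative. Tables of the same fraction shared 59 barcodes over 8 pairs, so the runs hold mostly different cells. A deposited count table of all cells together was not used. Genes in at least 3 cells and cells with 450 to 4000 genes and under 20% mitochondrial UMIs were kept, after the study's filter. No doublet caller was run, so the upper gene limit was the one guard against doublets. After scaling every cell to 10000 UMIs and taking logs, cells were clustered without the 10 genes (scanpy 1.11.5, 30 components, 20 neighbors, Leiden resolution 0.3). Classes were named from marker lists, and a cluster leading with fewer than 3 markers was left unnamed.

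Levels are summed UMIs of a class scaled to 1000000 (CPM), with exact Poisson intervals. Ratios have conditional binomial intervals and shares exact binomial ones, all at 95% and for counting error only. Genes with at least 50 UMIs over both groups were called at 2-fold without overlap of the 4 fractions. The rule was run on simulated counts with Poisson spread alone. These lack the wider spread between fractions seen here, so they cannot vouch for the rule on these data. TMM (edgeR 4.0.16) and DESeq2 1.42.0 size factors were used for scaling alternatives alone. From each list the 4 widest ratios were named, with Kitl, Jak2, Stat5a and Stat5b whatever their values. A few genes that these rules would name are not reported here. The 10 genes, the lists and the rules were chosen with earlier results of these data known. Fractions are numbered as the labels number the samples.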

Additional observations from a re-analysis of the deposited data

Results flagged for a closer look

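In 20 sets of 4 fractions, each a gene in a class with enough UMIs, the highest or lowest fraction was looked for far from the other 3, and 2 sets had one, where chance gives about 1 in 20. Prlr in WB1P epithelial-like cells was 146 CPM in fraction 1, its gap to the nearest fraction being 0.924 of the range, from 13 UMIs in 6 of 60 cells, with 6 of them in 1 cell of 11621 UMIs. Without that cell fraction 1 stood at 90.2 CPM. Aldh1a3 in Schwann-like cells was 9.37 CPM in WB1P-Myc fraction 2, likewise far above the other 3.

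Barcodes above 4000 genes were outside every comparison. The 134 such barcodes of WB1P-Myc, with 4472225 UMIs in all, held 9 Foxa1, 10 Esr1 and 4 Pgr UMIs, or 2.01, 2.24 and 0.894 CPM. The 40 such barcodes of WB1P held 2, 1 and 0. The epithelial-like cells of both models had 0 Pgr UMIs, and the cells kept had 1, in a fibroblast-like cell. Whether these barcodes hold 1 cell or several was not tested.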

How the results depend on the processing

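The count of 2 genes lower in WB1P-Myc epithelial-like cells was 5 with cells of at least 200 genes, 4 when the members entered the clustering, 1 with no upper gene limit, 1 with cells classed by their own markers, 0 on the MiSeq run and 0 after thinning to 600 UMIs, where 1 gene each reached 50 UMIs. Added after the data were seen, it was 6 with epithelial-like, Schwann-like and unnamed WB1P-Myc cells together and 0 with subcluster 5 alone. Leaving out 1 fraction gave 2 to 3, with Elf3 called in 8 of 8 cases and Elf5 in 7 of 8, Aldh1a3 being called in its place without WB1P fraction 4. The 1 gene called with no upper gene limit was Aldh1a3, and the 1 called by the cells' own markers was Elf3. The count of 6 genes lower in Schwann-like cells was 1 on the MiSeq run and 1 after thinning, with 1 gene counted each, and 3 to 4 without 1 fraction, 3 without WB1P-Myc fraction 2, when fewer genes reached 50 UMIs and Elf5 and Gata3 were called in 0 of 4 cases. The log2 ratio of luminal progenitor to hormone-sensing UMIs was 2.16 in WB1P and 3.56 in WB1P-Myc on the MiSeq run, 7.58 and 5.44 without Prlr, and 2.20 to 2.60 and 2.29 to 3.12 without 1 fraction, 3.12 without WB1P-Myc fraction 2. No called direction turned. Over all alternatives but those added after the data were seen, the model ratio ran from -1.80 to -0.77 for Elf5, -1.80 to -0.88 for Elf3, -2.87 to -0.70 for Aldh1a3, 0.64 to 3.32 for Gata3 (3.32 without WB1P fraction 4), -2.44 to -0.25 for Prlr (-0.25 with no upper gene limit), -2.25 to 0.13 for Kit and -0.64 to 0.26 for Ehf. Over the same alternatives the Schwann-like over epithelial-like ratio ran from -7.05 to -2.98 for Ehf, -4.90 to -1.83 for Elf3 and -4.64 to -1.31 for Elf5. It ran from -4.72 to -2.09 for Gata3, -6.78 to -2.90 for Prlr, -4.38 to -0.52 for Kit and -1.29 to -0.28 for Aldh1a3. Where no construction is named, the cause was not tested. No paired analysis was possible because each model is 1 sample and the results come from no test. Precision is limited by the 10 to 331 UMIs behind each of these 7 genes in an epithelial-like class and the 2 to 30 in the Schwann-like class.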
